A study of Mus musculus with 16 samples.

Results

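The 40 Mb of mouse chromosome 5 from 60 to 100 Mb (mm9) were examined for the sites at which they contacted 2 gene promoters in 4C-seq libraries. All listed sites on chromosome 5 that began at or after 60 Mb and before 100 Mb were taken, in every library. This gave 19148 of the 327988 listed sites. Sites whose starts lay within 10 bp of each other were counted as 1 distinct site, which left 4496 distinct sites. The Pole libraries listed 4472 of them and the Cdca3 libraries 679, and 655 were listed at both viewpoints.

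The study measured contacts in mouse embryonic fibroblasts (MEFs), primary connective tissue cells taken from E13.5 embryos and grown, still dividing, to passage 4. Cells with 2 intact copies of Rb1 (Rb1+/+) were set against cells in which both copies are the L allele (Rb1L/L), with 4 numbered libraries of each genotype at each of 2 viewpoints and no other treatment. The viewpoints were the bidirectional promoter of Pole and Pxmp2 and that of Cdca3 and Usp5, which makes 16 libraries. Both viewpoints carry one set of pair identifiers, and libraries of 1 genotype and identifier were taken to come from 1 culture, which the labels do not state outright. The labels number the cultures in pairs of 1 Rb1+/+ and 1 Rb1L/L culture without saying what a pair shares, and do not say whether a culture came from 1 embryo or several. The p-values therefore measure only the spread between these cultures.

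In 4C-seq, chromatin is fixed, cut and ligated, so that fragments that lay close together in the nucleus become joined, and every fragment joined to 1 chosen locus, the viewpoint, is then sequenced. Far from a viewpoint on its own chromosome (in cis), and on other chromosomes (in trans), contacts are known to gather in blocks of chromatin of like activity with gaps between them. Rb1 encodes pRb, which holds back entry into the cell cycle, and the L allele is known from other work to change the cleft with which pRb binds proteins that carry an LXCXE motif. The study's title names condensin II, a complex that compacts chromosomes, as recruited to promoters by pRb, and the comparison of genotypes asks whether contacts of these promoters differ when this cleft is changed.

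Pole, the gene for the catalytic subunit of the replicative DNA polymerase epsilon, has its promoter on chromosome 5 at higher coordinates than the stretch, which is therefore its centromeric side in cis. Cdca3, a gene of cell division, lies on chromosome 6, so its libraries saw the stretch in trans. By RefSeq gene order (GRCm38.p6), landmarks on this side of Pole are, from the centromere outward, the Toll-like receptor genes Tlr1 and Tlr6, the receptor tyrosine kinase genes Pdgfra, Kit and Kdr, the circadian gene Clock, the casein gene Csn2, the liver genes Alb and Afp, the chemokine genes Cxcl5, Cxcl1 and Cxcl10, and the growth factor genes Fgf5 and Bmp3. These names are given for orientation, and no gene was assigned to a block, because no mm9 annotation was used here. The promoter sequence of Cdca3 is shown as the locus from which the trans view was taken. It is the RefSeq window from 250 bases before to 50 bases after the gene start, chr6:124829926-124830225 on the plus strand of GRCm38.p6, and capitals mark the only CATG, the site of the second enzyme, NlaIII.

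Cdca3 promoter: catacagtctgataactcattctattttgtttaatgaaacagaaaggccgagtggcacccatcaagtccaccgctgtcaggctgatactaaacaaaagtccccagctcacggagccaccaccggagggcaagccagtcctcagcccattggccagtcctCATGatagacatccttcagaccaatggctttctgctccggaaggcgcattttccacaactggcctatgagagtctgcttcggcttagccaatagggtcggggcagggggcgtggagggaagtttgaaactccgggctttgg

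The CATG begins at base 160 of this window, and AAGCTT, the site of the first enzyme, HindIII, occurs 0 times in it. Both motifs read the same on either strand. Among the 32851 promoter windows of this length, 61.1% held CATG and 7.45% held AAGCTT.

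Each library came as a list of significant sites and a list of significant regions, without read counts, and the depth of sequencing is therefore unknown. The number of sites listed in all was 6485 to 17522 per Pole library and 15802 to 39650 per Cdca3 library. Replicate 1 of Rb1L/L had the fewest listed sites at both viewpoints. Every listed site of the stretch lay inside a called region, so sites and regions are 2 views of 1 measurement, and a region could hold as few as 1 listed site.

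Seen from Pole, the stretch consisted of a few long contacted blocks with empty gaps between them, and nearly the same blocks were called in both genotypes. Regions called in all 8 Pole libraries formed 12 intervals with a summed length of 11.2 Mb, or 27.9% of the stretch. These intervals, the core, held 82.1% ± 7.52 (SD, n = 8 libraries) of the sites of a library. The 4 longest made up 7.95 Mb and held 62.4% ± 7.47 (SD, n = 8). At the other end, 18.9 Mb in 10 intervals (47.2% of the stretch) was called in 0 of 8 libraries. The lengths called in exactly 1 to exactly 7 libraries were all shorter. They ranged from 0.603 Mb called in exactly 2 libraries to 2.38 Mb called in exactly 7.

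**Figure D1:**
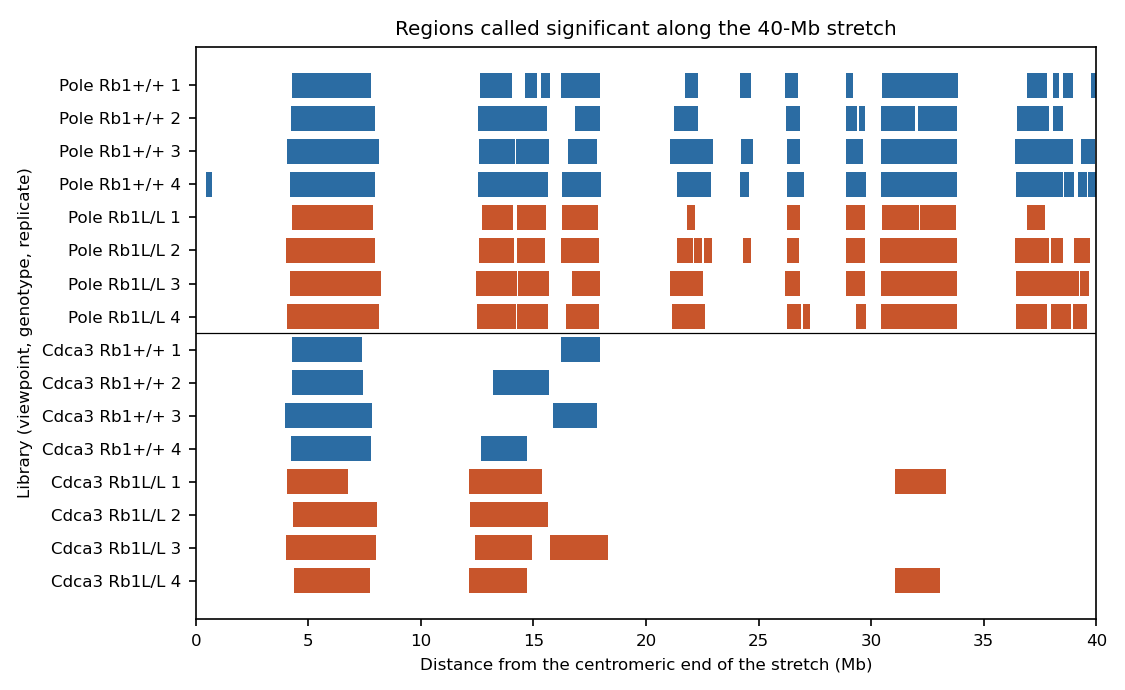
Called regions in each of the 16 libraries (rows, by viewpoint, genotype and replicate) along the 40-Mb stretch (horizontal axis, Mb from its centromeric end). Of the 10 merged Pole blocks, 8 appear in all 8 Pole rows, and the 8 Cdca3 rows share 1 block, with a further block in all 4 Rb1L/L rows and in 2 of the Rb1+/+ rows.

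The longest core block ran from chr5:64263645 to 67799426 (3.54 Mb). It held 404, 486, 625 and 632 listed sites in Rb1+/+ replicates 1 to 4 and 371, 652, 608 and 569 in Rb1L/L. The low numbers belong to the libraries with few listed sites in all, and the genotypes overlapped. Per 1000 chromosome 5 sites the block held 79.3 ± 8.74 (SD, n = 4) in Rb1+/+ and 82.4 ± 9.98 (SD, n = 4) in Rb1L/L. The libraries listed between 40.7% and 71.5% of its 912 distinct sites.

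A pair of core blocks lay close together near 92 Mb. The second longest core block, chr5:92170198 to 93762828 (1.59 Mb), held 314, 290, 364 and 371 sites in Rb1+/+ and 245, 369, 363 and 349 in Rb1L/L. This was the most completely listed of the 4 longest, with 54.9% to 83.2% of its 446 distinct sites in a library. The third in length, chr5:90465221 to 91957733 (1.49 Mb), held 247, 229, 290 and 316 sites in Rb1+/+ and 146, 330, 323 and 291 in Rb1L/L. Both genotypes again overlapped, and Rb1L/L replicate 1 was lowest in each block.

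The fourth, chr5:72723806 to 74049633 (1.33 Mb), held 148 to 282 sites per library. The fifth, chr5:76863804 to 77832663 (0.969 Mb), held 95 to 177, and the sixth, chr5:96941723 to 97719341 (0.778 Mb), held 62 to 174. In all 3 the lowest number was that of Rb1L/L replicate 1. The other 6 core intervals were between 0.00304 and 0.530 Mb long. Thus the 6 longest blocks of the core included one near each end of the stretch and left its middle, from 78 to 90 Mb, without any.

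The longest gap, chr5:68234702 to 72452192 (4.22 Mb), followed directly on the longest block. The next were chr5:60732309 to 64019835 (3.29 Mb), chr5:77996474 to 81067525 (3.07 Mb) and chr5:93834629 to 96378874 (2.54 Mb). The fifth and sixth, chr5:87267258 to 88863725 (1.60 Mb) and chr5:84747463 to 86171673 (1.42 Mb), lay in the thinly contacted middle. Measured by sites instead of regions, 14 gaps of at least 100 kb between neighbouring listed sites made up 22.5 Mb (56.2%). Adding the sites of the 8 Cdca3 libraries left this number and this length as they were. The longest of these site gaps, chr5:68099408 to 72594315, measured 4.49 Mb, so no site was listed in it from either viewpoint.

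When overlapping regions of the 8 Pole libraries were merged, 10 contacted blocks resulted and 8 of these were called in every library. The exceptions were chr5:60440771 to 60732308, called in Rb1+/+ replicate 4 alone on 1 site, and chr5:84165020 to 84747462, called in 3 Rb1+/+ libraries and 1 Rb1L/L library. The stretch was covered by 10 to 15 regions per library.

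Single sites recurred much less than blocks. Of the 4472 distinct sites listed from Pole, 295 (6.60%) were listed in all 8 libraries and 781 (17.5%) in 1 library, against 8.98% and 20.5% over all of chromosome 5. In 3 or more Rb1+/+ libraries and at most 1 Rb1L/L library, 156 sites (3.49%) were listed, where the same count over all chromosome 5 sites gave 3.66%. The opposite pattern was seen at 227 sites (5.08%), against 3.87%. Neighbouring sites share their called region, so these counts are not counts of independent events and were not tested.

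The stretch took nearly the same share of chromosome 5 sites in every Pole library. The share was 33.0%, 32.7%, 32.9% and 32.6% in Rb1+/+ replicates 1 to 4, and 33.5%, 32.9%, 33.9% and 32.6% in Rb1L/L. These are 32.8% ± 0.194 (SD, n = 4) and 33.2% ± 0.598 (SD, n = 4). The difference, Rb1L/L minus Rb1+/+, was 0.447 percentage points (95% interval -0.403 to 1.32, exact two-sided permutation test p = 0.314). Rb1L/L was higher in 4 of 4 numbered pairs. Without Rb1L/L replicate 3 the difference was 0.226, and as a share of all listed sites it turned to -0.714 (exact permutation p = 0.514). The smallest p that 4 libraries against 4 allow is 0.0286.

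The length covered by called regions varied more between libraries than between genotypes. It was 36.9%, 38.3%, 47.0% and 47.9% of the stretch in Rb1+/+ and 33.9%, 44.2%, 45.1% and 44.7% in Rb1L/L. The library with the fewest listed sites covered least in each genotype. Means were 42.5% ± 5.72 (SD, n = 4) and 42.0% ± 5.38 (SD, n = 4), and Rb1L/L minus Rb1+/+ came to -0.553 percentage points (95% interval -14.0 to 8.18, exact permutation p = 0.971). That interval is wide, so a difference of several percentage points either way was not detectable here.

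Within the stretch, the contacts from Pole were unevenly spread and the spread was alike in the genotypes. The 10 Mb from 90 Mb held 41.2% ± 3.21 (SD, n = 4) of the stretch's sites in Rb1+/+ and 39.8% ± 3.48 (SD, n = 4) in Rb1L/L. The 10 Mb from 80 Mb held 9.60% ± 3.36 and 9.58% ± 2.23. The sections from 60 Mb (24.4% ± 2.39 and 25.4% ± 2.48) and from 70 Mb (24.7% ± 2.26 and 25.1% ± 1.79) lay between them. None of the 4 sections passed the exact permutation test, with Benjamini-Hochberg adjusted p = 1 in each and raw p from 0.543 to 1. The order of the sections did not follow distance from the viewpoint, since the section from 80 Mb is nearer to Pole than the sections from 60 and 70 Mb, which held more.

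**Figure D2:**
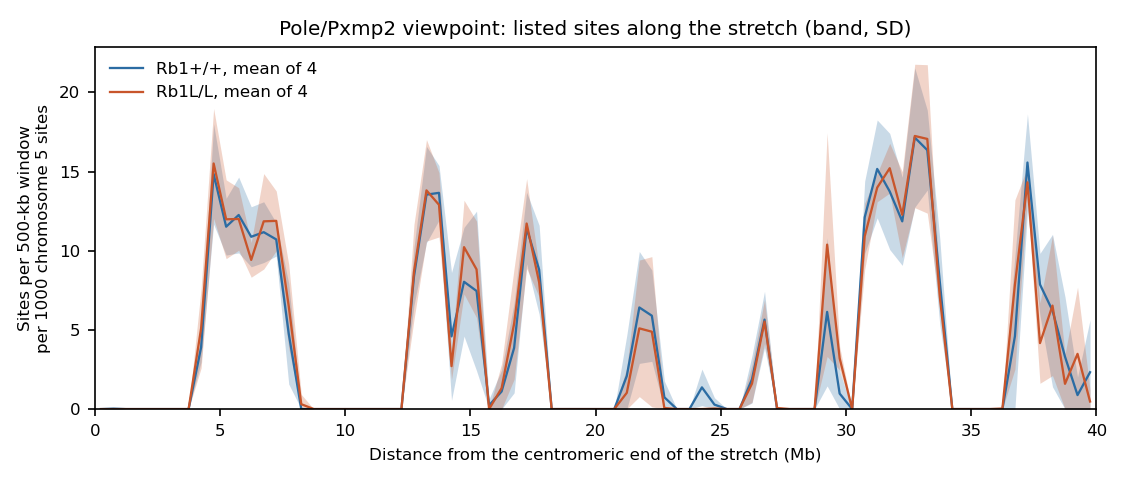
Listed sites per 500-kb window in the Pole libraries, per 1000 chromosome 5 sites, along the stretch (Mb from its centromeric end), with the mean of the 4 libraries of each genotype as a line and the SD as a band. The high stretches of both genotypes lie at the same places with overlapping bands, and 33 of 80 windows are empty in every library.

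In finer steps, the 5 Mb from 90 Mb held on average 28.5% of a library's sites in the stretch and the 5 Mb from 65 Mb held 19.0%, while the 5 Mb from 80 Mb held 4.23%. That last interval held 53, 51, 244 and 165 sites in Rb1+/+ and 1, 45, 175 and 128 in Rb1L/L. Both genotypes had 2 low and 2 high libraries there, and the single site belonged to the library with the fewest listed sites. The 5 Mb from 95 Mb also varied, with 130, 186, 529 and 362 sites in Rb1+/+ and 62, 326, 362 and 391 in Rb1L/L.

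Of the 80 windows of 500 kb, 47 held a site in some Pole library and 27 held sites in all 8. The 43 windows with at least 8 sites were tested with limma on log2 of sites plus 0.5 per 1000 chromosome 5 sites, with adjustment over all 167 tested windows of the chromosome. At an adjusted p under 0.05, 0 of the 43 were called, and over the whole chromosome 0% were. At an unadjusted p under 0.05 there was 1 of the 43, where the chromosome had 1.2%. The log2 difference was above 0 in 22 of the 43 windows and its median was 0.01. The limma 95% intervals had a median half-width of 1.16 on the log2 scale over the 43 windows and of 0.51 over the 27 windows with sites in every library. In 20 of those 27 the whole interval lay within 1 log2 unit of 0.

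The windows with the smallest unadjusted p in each direction lay at thinly or variably contacted places. In the window from 84.0 to 84.5 Mb, Rb1+/+ libraries listed 13, 0, 15 and 9 sites and Rb1L/L libraries 0 each, with a log2 difference of -3.46 ± 1.26 (SE, limma adjusted p = 0.983). It was the only one of the 43 windows with sites in at least 3 libraries of Rb1+/+ and at most 1 of Rb1L/L, a pattern that 1.8% of the chromosome's windows had. It entered the test through its Rb1+/+ sites alone. No window of the stretch had the opposite pattern, and 0% of the chromosome's did. Next were the window from 97.5 Mb, with 27, 42, 67 and 92 sites in Rb1+/+ and 3, 47, 50 and 28 in Rb1L/L (log2 difference -1.21 ± 0.63 SE), and the window from 82.5 Mb, with 0, 0, 19 and 7 against 0, 2, 0 and 0 (-1.69). The first of these was -0.57 without Rb1L/L replicate 1. The second was -0.82 when Rb1+/+ replicate 3 was left out, and without its Rb1+/+ sites it would not have entered the test.

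In the other direction, the window from 89.5 Mb held 0, 4, 1 and 27 sites in Rb1+/+ and 11, 26, 20 and 32 in Rb1L/L, a log2 difference of 2.80 ± 1.28 (SE). Every Rb1L/L library was above its Rb1+/+ partner in number, but Rb1+/+ replicate 4 exceeded 3 of the Rb1L/L libraries. The windows from 99.0 Mb (1.92) and 74.5 Mb (0.41) came next, and with single libraries left out these lay between 1.04 and 3.12 and between 0.12 and 0.62. The adjusted p in limma was 0.983 for all of these.

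Among called regions, intervals of at least 100 kb called in 3 or more libraries of Rb1+/+ and at most 1 of Rb1L/L numbered 2 and came to 2.81% of the length called from Pole in the stretch, with 1.66% over chromosome 5. They were chr5:84197625 to 84583005 (385 kb), where Rb1+/+ listed 14, 0, 23 and 9 sites and Rb1L/L 0, 1, 0 and 0, and chr5:99750131 to 99957876 (208 kb), where Rb1+/+ listed 5, 0, 6 and 9 and Rb1L/L 0 each. The reverse pattern had 1 interval, chr5:99028523 to 99217365 (189 kb), with 0, 4, 1 and 29 sites in Rb1L/L and 0 in each Rb1+/+ library. It was 0.895% of the called length, with 0.88% over chromosome 5. The chromosome 5 values include the stretch. In all 3 intervals 1 library of the genotype with more calls also lacked them. Sites were listed only inside called regions, so the libraries without sites follow from the choice of intervals and are no further support.

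Region maps of 2 Pole libraries overlapped as much between genotypes as within them. The overlap, base pairs called in both over base pairs called in either, averaged 77.8% ± 6.45 (SD, 12 pairs of libraries) within genotypes and 78.6% ± 6.72 (SD, 16 pairs) between them. The difference was -0.869 percentage points, with an exact one-sided permutation p of 0.657 over 35 assignments. Single pairs ranged from 68.0% to 88.5%.

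Contact density over the stretch differed from that of parts of chromosome 5 nearer to and farther from Pole. Pole libraries listed 56.8 ± 15.6 sites per Mb (SD, n = 8) in the stretch, 24.4 ± 9.49 below 60 Mb, 72.4 ± 17.0 from 100 to 120 Mb and 55.7 ± 13.6 from 120 Mb to the end. Within libraries, the stretch was 2.44-fold denser than the part below 60 Mb (log2 1.29 ± 0.26 SD, higher in 8 of 8, exact sign-flip permutation adjusted p = 0.0117). It was 0.774-fold as dense as the part from 100 to 120 Mb (log2 -0.37 ± 0.17 SD, lower in 8 of 8, exact permutation adjusted p = 0.0117). That part holds the Pole promoter itself. Against the part from 120 Mb, on the far side of the promoter, the ratio was 1.01 (log2 0.02 ± 0.07 SD, exact permutation adjusted p = 0.539). The adjustment was over these 3 comparisons. With only sites of a deposited value under 0.01, the difference from the 100 to 120 Mb part missed the threshold (log2 -0.20, exact permutation adjusted p = 0.0859).

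**Figure D3:**
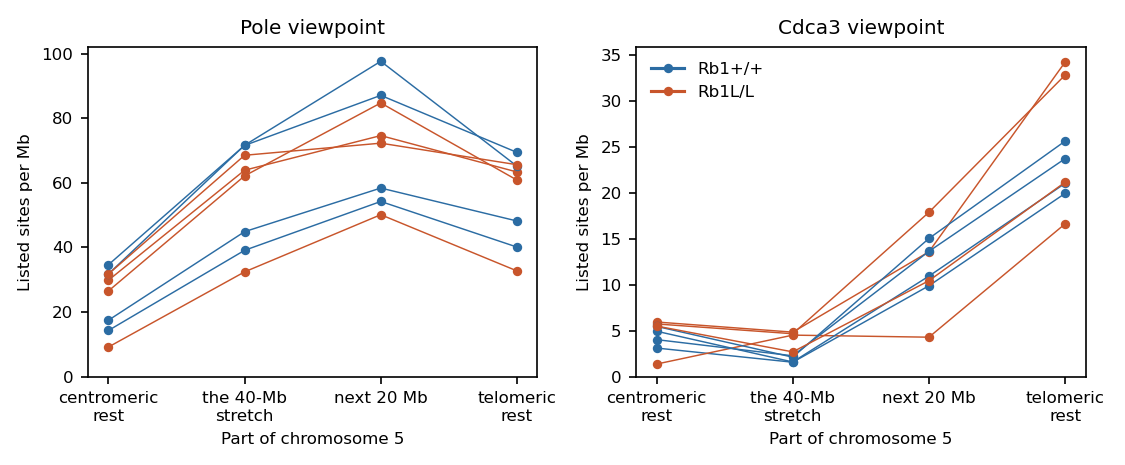
Listed sites per Mb in the stretch and in the other 3 parts of chromosome 5, with 1 panel per viewpoint, each on its own scale, and a line joining the 4 values (points) of each of the 16 libraries, coloured by genotype. From left to right the parts are below 60 Mb, the stretch, 100 to 120 Mb and from 120 Mb. The Pole libraries sit higher in the stretch than below 60 Mb, and 7 of 8 Cdca3 libraries sit lower.

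From Cdca3, in trans, the stretch was sparsely contacted, with 1 block in every library and a further block called in more Rb1L/L than Rb1+/+ libraries. The Rb1+/+ libraries listed 63, 64, 91 and 85 sites in the stretch and the Rb1L/L libraries 181, 194, 187 and 108. Every Rb1L/L library had more than any Rb1+/+ library. Numbers of all listed trans sites also differed between libraries, so shares were compared.

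As a share of trans sites, the stretch took 0.456%, 0.364%, 0.501% and 0.396% in Rb1+/+ and 1.72%, 0.646%, 0.671% and 0.537% in Rb1L/L. The groups did not overlap, so Rb1L/L was higher in 4 of 4 numbered pairs, as it would be under any pairing. Means were 0.429% ± 0.0611 (SD, n = 4) and 0.893% ± 0.553 (SD, n = 4), a difference of 0.464 percentage points (95% interval 0.0360 to 1.35, exact two-sided permutation p = 0.0286, the smallest the design allows). Among 43 stretches of 40 Mb cut from the chromosomes in trans, 9.3% had every Rb1L/L library above every Rb1+/+ library and 4.65% the reverse. Adjusted over the 43, the exact permutation p was 0.205, so the difference did not pass.

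The highest share was that of Rb1L/L replicate 1, the Cdca3 library with the fewest listed sites. Leaving it out gave 0.189 percentage points between the genotypes (exact permutation p = 0.0286). With only sites of a deposited value under 0.01, and all libraries, it was 0.343 (exact permutation p = 0.2). Of the sites listed in the stretch, 82.5%, 67.2%, 79.1% and 78.8% had a value under 0.01 in Rb1+/+, and 43.6%, 65.5%, 62.0% and 57.4% in Rb1L/L, so that every Rb1L/L library had a larger share of sites between 0.01 and 0.05 than any Rb1+/+ library. The part of this in the difference was not tested. The same share over all trans sites of each library is not given here. A trait of the stretch can therefore not be told from one of the whole library.

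The covered length showed the same order of the genotypes with less spread. Called regions covered 12.1%, 14.1%, 14.6% and 14.0% of the stretch in Rb1+/+ and 20.6%, 17.9%, 22.8% and 19.8% in Rb1L/L, again without overlap. Means were 13.7% ± 1.07 (SD, n = 4) and 20.3% ± 2.02 (SD, n = 4), a difference of 6.61 percentage points (95% interval 3.37 to 10.7, exact permutation p = 0.0286). Only this stretch of the 43 in trans, 2.33%, had every Rb1L/L library above every Rb1+/+ library in covered length, and 0% had the reverse. The exact permutation p adjusted over the 43 was 0.527. As a trans target it was a weak one, since its mean share of 0.661% ranked 35 of 43, with a median stretch at 1.54%.

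The block common to all Cdca3 libraries, chr5:63951715 to 68057672 (4.11 Mb), did not differ detectably between genotypes. It held 62, 60, 83 and 69 sites in Rb1+/+ and 46, 120, 120 and 58 in Rb1L/L, which is 3.92 ± 0.708 and 3.89 ± 0.689 per 1000 trans sites (SD, n = 4 each). Its core, called in all 8 libraries, ran from chr5:64382349 to 66767522 (2.39 Mb) and lay inside the longest Pole core block. A library listed 14.2% to 30.5% of its 325 distinct sites.

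The next block, chr5:72152095 to 75694616 (3.54 Mb), was called in 4 of 4 Rb1L/L libraries and in 2 of 4 Rb1+/+ libraries. It held 0, 4, 0 and 16 sites in Rb1+/+ and 88, 74, 34 and 42 in Rb1L/L, so that the lowest Rb1L/L library had more than the highest Rb1+/+ library. Per 1000 trans sites these were 0.243 ± 0.351 and 3.53 ± 3.26 (SD, n = 4 each). With only values under 0.01, the 10 Mb from 70 Mb, which hold this block, had 0, 0, 0 and 8 sites in Rb1+/+ and 43, 16, 8 and 17 in Rb1L/L. The stricter threshold thus brought the lowest Rb1L/L library level with the highest Rb1+/+ library in number of sites. These numbers are not scaled to the length of the lists.

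Other blocks were called in a minority of libraries. The block chr5:75719531 to 78297178 (2.58 Mb) was called in Rb1+/+ replicates 1 and 3, with 1 and 8 sites, and in Rb1L/L replicate 3, with 33. The block chr5:91038434 to 93341166 (2.30 Mb) was called in Rb1L/L replicates 1 and 4, with 47 and 8 sites, and lay inside a merged Pole block. The rest, 27.5 Mb (68.7% of the stretch) in 5 intervals, was called in 0 of 8 Cdca3 libraries. The longest of these, chr5:78297179 to 91038433, measured 12.7 Mb. It was followed by chr5:93341167 to 100000000 (6.66 Mb), chr5:68057673 to 72152094 (4.09 Mb) and chr5:60000001 to 63951714 (3.95 Mb), and the fifth was a break of 0.0249 Mb between neighbouring blocks.

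The same 4 sections of 10 Mb were compared from Cdca3, a choice made after the values were seen. In the 10 Mb from 70 Mb the covered length was 20.5% ± 3.08 in Rb1+/+ and 35.9% ± 10.7 in Rb1L/L (SD, n = 4 each, exact permutation p = 0.0286, adjusted p = 0.114), which did not pass after adjustment over the 4. The 10 Mb from 60 Mb had 34.2% ± 3.67 and 34.6% ± 5.73 (exact permutation p = 0.914). The 10 Mb from 80 Mb held no called region in any Cdca3 library. The 10 Mb from 90 Mb held none in Rb1+/+ and 10.7% ± 12.5 in Rb1L/L (exact permutation p = 0.429). In listed sites, the 10 Mb from 70 Mb had 0.0725, 0.228, 0.440 and 0.745 per 1000 trans sites in Rb1+/+ and 8.35, 2.46, 2.40 and 2.09 in Rb1L/L (exact permutation p = 0.0286, adjusted p = 0.114). Without Rb1L/L replicate 1 the remaining 3 libraries still lay above all 4 of Rb1+/+.

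**Figure D4:**
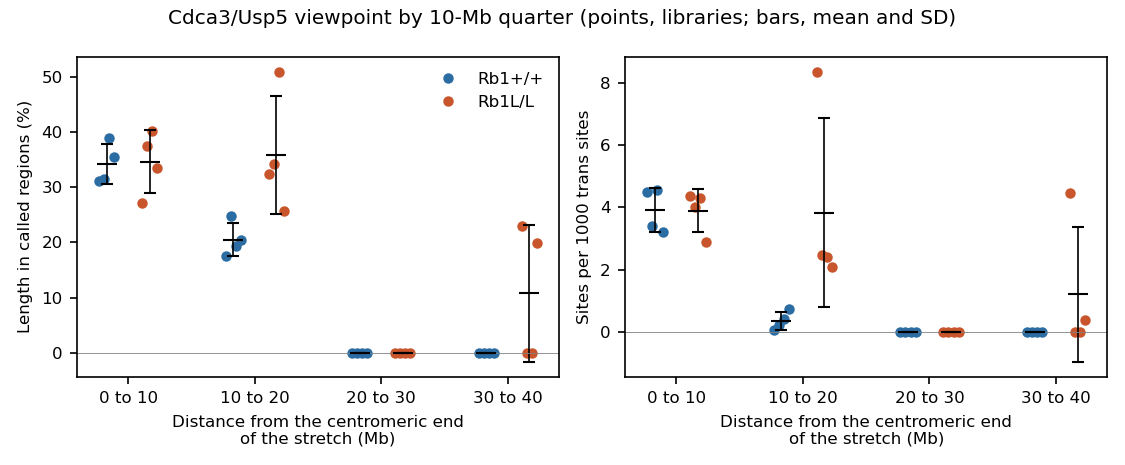
Percent of length in called regions (left) and listed sites per 1000 trans sites (right) in the 4 sections of 10 Mb of the stretch, as Mb from its centromeric end, for the Cdca3 libraries, with a point per library and bars for the mean and SD of 4. On the right, in the section from 70 Mb the Rb1L/L libraries lie between 2.09 and 8.35 and the Rb1+/+ libraries between 0.0725 and 0.745, while the section from 60 Mb shows like values in both genotypes.

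In 500-kb windows, 15 windows of the stretch were tested among 1732 in trans. At an adjusted p under 0.05 limma called 0 of the 15, and 0% of the 1732. At an unadjusted p under 0.05 there were 2 of the 15, where all trans windows had 4.91%. The log2 difference was above 0 in 12 of the 15, and its median was 1.19, where all windows had -0.01. Sites in at least 3 Rb1L/L libraries and at most 1 Rb1+/+ library were found in 4 of the 15, with 5.6% of all windows, and the reverse in 0 of 15, with 1.73%. These windows adjoin one another, and their intervals were wide, with a median half-width of 2.86 on the log2 scale. A window entered the test on at least 8 sites summed over both genotypes. The windows from 72.5, 73.0, 91.5 and 92.0 Mb had no Rb1+/+ site and entered through Rb1L/L alone. Those from 67.0, 74.0, 74.5 and 77.0 Mb had sites in 1 Rb1+/+ library each, too few to pass without Rb1L/L. This rule set the direction of the windows without Rb1+/+ sites and favoured that of the others. The numbers of windows above 0 or leaning to Rb1L/L therefore do not support a genotype difference.

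The 3 windows with the smallest p toward Rb1L/L were neighbours. From 73.0 to 73.5 Mb, Rb1+/+ libraries listed 0 sites each and Rb1L/L libraries 27, 9, 11 and 21, with a limma log2 difference of 4.77 ± 1.64 (SE, adjusted p = 0.749). That value depends on the 0.5 added to each number, and the window entered the test through its Rb1L/L sites alone. From 73.5 to 74.0 Mb the numbers were 0, 0, 0 and 16 against 21, 23, 18 and 16 (log2 3.82 ± 1.65 SE), and from 74.0 to 74.5 Mb 0, 1, 0 and 0 against 24, 24, 5 and 0 (3.05 ± 1.58 SE). In the first every Rb1L/L library exceeded every Rb1+/+ library, in the second 1 value was shared, and in the third Rb1L/L replicate 4 listed none. The third, too, would not have entered the test without its Rb1L/L sites. The windows toward Rb1+/+ lay in the common block, from 65.5 Mb with 30, 21, 26 and 22 sites against 11, 27, 28 and 13 (-0.65 ± 0.41 SE), from 66.0 Mb with 18, 17, 17 and 17 against 0, 30, 29 and 17 (-1.14) and from 65.0 Mb (-0.02). The second of these values rests on Rb1L/L replicate 1, since it was -0.05 without that library. The third took either sign as single libraries were left out, from -0.46 to 0.26.

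Intervals of at least 100 kb called in 3 or more Rb1L/L and at most 1 Rb1+/+ Cdca3 libraries numbered 2. The longer, chr5:72200447 to 73219041 (1019 kb), held 21, 11, 2 and 17 sites in Rb1L/L and 0 in each Rb1+/+ library. The other, chr5:74726902 to 74943525 (217 kb), held 0, 2, 0 and 0 sites in Rb1+/+ and 0, 4, 0 and 0 in Rb1L/L, so that in listed sites 1 library of each genotype had any and the genotypes overlapped. Both came to 9.86% of the length called from Cdca3 in the stretch, with 1.97% over chromosome 5, and no interval had the reverse pattern, with 1.44% over chromosome 5. The chromosome 5 values include the stretch. Of the 1602 kb behind the 1.97%, these 2 intervals made up 1.24 Mb. Because sites were listed only inside called regions, the libraries without sites here follow from the choice of intervals and are no further support.

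Site by site, the Cdca3 libraries had little in common. Of their 679 distinct sites, 469 (69.1%) were listed in 1 library, against 54.5% of their distinct sites over all of chromosome 5. The most widely shared, 5 sites, were listed in 5 libraries, where over chromosome 5 there was 1 site listed in all 8. Sites listed in 3 or more Rb1L/L and at most 1 Rb1+/+ libraries numbered 13 (1.91%), with 2.27% over chromosome 5, and the reverse 3 (0.442%), with 1.94%. Region maps overlapped by 55.8% ± 14.4 (SD, 12 pairs of libraries) within genotypes and 48.6% ± 17.1 (SD, 16 pairs) between them, a difference of 7.21 percentage points with an exact one-sided permutation p of 0.171 over 35 assignments. Pairs ranged from 23.5% to 79.4%. With single libraries left out the difference lay between 2.30, in the absence of Rb1L/L replicate 1, and 13.1, in that of Rb1+/+ replicate 4 (exact one-sided permutation p from 0.0857 to 0.343). Leaving out Rb1+/+ replicate 1 gave 3.21, Rb1+/+ replicate 3 gave 4.6 and Rb1L/L replicate 4 gave 3.61, while leaving out Rb1+/+ replicate 2 gave 11.7 and leaving out Rb1L/L replicate 3 gave 11.3.

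Compared with the rest of chromosome 5, the stretch was thinly contacted from Cdca3. The libraries listed 3.04 ± 1.41 sites per Mb (SD, n = 8) there. This was 0.116-fold the density from 120 Mb (log2 -3.11 ± 0.62 SD, lower in 8 of 8, exact sign-flip permutation adjusted p = 0.0234) and 0.247-fold that from 100 to 120 Mb (log2 -2.02 ± 0.97 SD, lower in 7 of 8, exact permutation adjusted p = 0.0234). Against the part below 60 Mb it was 0.665-fold (log2 -0.59 ± 1.04 SD, lower in 7 of 8, exact permutation adjusted p = 0.164). Without Rb1L/L replicate 1 the last value was -0.92 (exact permutation adjusted p = 0.0156).

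What the Cdca3 promoter contacted in this stretch was for the most part also contacted by the Pole promoter in the library of the same genotype and pair identifier, taken as the same culture. Of the base pairs called from Cdca3, 99.7%, 98.6%, 86.8% and 100% were called from Pole in Rb1+/+ cultures 1 to 4, and 87.3%, 89.9%, 82.6% and 95.8% in Rb1L/L cultures. The mean was 92.6% ± 6.75 (SD, n = 8 cultures), while Pole regions covered 42.2% ± 5.15 (SD, n = 8) of the stretch. The difference was 50.3 ± 8.97 percentage points (SD, n = 8), above 0 in 8 of 8 cultures (exact sign-flip permutation p = 0.00781, the smallest that 8 cultures allow). Both viewpoints read the same restriction sites of the genome. All 8 cultures also shared the common Cdca3 block, whose core lies inside the longest Pole core block, so 1 locus entered the test in every culture. The p-value therefore measures the spread between cultures and does not test where blocks fall along the stretch. Conversely, 37.4% ± 8.40 (SD, n = 8) of the base pairs called from Pole were called from Cdca3. Of the distinct sites, 655 were shared, which is 96.5% of those listed from Cdca3 and 14.6% of those listed from Pole. The 8 Pole lists together held 4472 of the 4496 distinct sites listed at either viewpoint. The same share over all of chromosome 5 was not taken, so 96.5% cannot be called high or low for this stretch.

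The genotype difference in covered length was compared between the viewpoints, with libraries matched in the same way. Pole minus Cdca3 was 28.8 percentage points on average in Rb1+/+ cultures and 21.7 in Rb1L/L cultures. The difference of -7.17 (95% interval -20.6 to 1.98, exact two-sided permutation p = 0.171, n = 4 against 4) did not pass the threshold, so a genotype difference particular to the Cdca3 viewpoint was not shown.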

How the data were processed

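The 16 4C-seq libraries came as site lists and region lists. In each site list the authors deposited a p-value or q-value per restriction site, all under 0.05. Which of the 2 it is was not settled. Regions are deposited as coordinates with no score. Per the submitters' processing notes, coordinates are mm9. For the aligner and caller, names were not given in the sources used here. No counts are held, so the precision that depth gives is unknown. A longer list can hold more weak sites.

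Sites, regions and 500-kb windows were summarised in Python 3.11.15 (pandas 2.3.3, numpy 2.4.6). Genotypes were compared 4 against 4 by exact two-sided permutation over 70 assignments. Parts of the chromosome and viewpoints were compared by exact sign-flip over 8 libraries or cultures. Windows with at least 8 sites went into limma 3.58.1 (R 4.3.3) with Benjamini-Hochberg adjustment, a step tried on simulated data. The simulation drew windows independently, whereas listed sites come in called regions, so it does not show how well the step works on these lists. The 6 longest core blocks and gaps, intervals of at least 100 kb leaning to a genotype, and the 3 windows with the smallest p each way are named. The stretch and these rules were chosen with earlier results of these data known. Alternatives were leaving out libraries, a stricter value, other windows, scalings and limits, and the pair number as a block.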

Additional observations from a re-analysis of the deposited data

Results flagged for a closer look

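Each group of 4 libraries was searched for a value far from the other 3, in 24 groups of values. For independent values without ties, chance alone gives such a value in about 5% of groups, and 4 were found. The measures searched are related within a library, so the 4 cannot be set against that rate. From Pole, Rb1L/L replicate 1 covered 33.9% of the stretch, below the other Rb1L/L libraries at 44.2% to 45.1%. From Cdca3, Rb1L/L replicate 1 had a share of 1.72% of trans sites, above the others at 0.537% to 0.671%. Rb1L/L replicate 4 listed 108 sites in the stretch, below the others at 181 to 194. Rb1L/L replicate 2 had 2 called regions where each of the others had 3, and with 3 equal values any departure is flagged.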

How the results depend on the processing

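Of 370 alternative values, 341 were labelled the same as the main value. For differences this meant the same direction and side of the threshold. For numbers of parts and for lengths a value close to the main one was enough, such as 3 parts in place of 2 for the Pole density. Many of the 370 belong to single windows far from the threshold, so the 341 are no measure of robustness. For Pole, the difference in share was -0.714 as a share of all listed sites, against 0.447. The difference in covered length was 1.21 without regions under 500 kb, and -2.43 to 2.13 with single libraries left out. It was above 0 without Rb1L/L replicate 1 or Rb1+/+ replicate 3 or 4. The overlap difference was -1.88 to 0.498 over the libraries left out. Under the 0.01 threshold the Pole density differed from 1 other part of the chromosome in place of 2. Against the part from 120 Mb the log2 ratio was -0.000341 (without Rb1+/+ replicate 3) to 0.0338 with single libraries left out, and 0.14 (exact permutation adjusted p = 0.0117) for the stretch from 65 to 95 Mb. For Cdca3, the difference in share was 0.343 under the 0.01 threshold and 0.189 to 0.582 with single libraries left out. The exact permutation p rose to between 0.114 and 0.143 without any single Rb1+/+ library. The difference in covered length was 5.77 to 7.40 with single libraries left out (exact permutation p = 0.0286 in each). An alternative added after seeing the data, the stretch from 60 to 70 Mb alone, gave a share difference of -0.00350. The Cdca3 window from 65.0 Mb had a log2 difference of 0.0418 per 1000 listed sites and -0.46 to 0.26 with single libraries left out. The causes were not tested.

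The pair numbers were not taken as a pairing, because same-numbered libraries did not all deviate together (correlations -0.103 to 0.278 for Pole and 0.0394 to 0.154 for Cdca3). The closest partner was the same-numbered library in 1 of 4 Pole and 3 of 4 Cdca3 cases. With the replicate block, the Cdca3 differences of 0.464 in share and 6.61 in covered length had exact permutation p = 0.125, the smallest that 4 pairs allow, so they could not pass. The block changed no other call. Without read counts, a site absent from a list cannot be told apart from one sequenced too thinly to pass.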

Other observations

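A merged block around chr5:64382349 to 66767522 was called from both viewpoints in every library. Its listed sites were bounded on either side by gaps with no listed site from either viewpoint, chr5:60566003 to 64192765 (3.63 Mb) and chr5:68099408 to 72594315 (4.49 Mb). The called block itself, chr5:64019836 to 68234701 from Pole, reached a short way into both gaps. Further gaps of this kind were chr5:77821431 to 81201798 (3.38 Mb) and chr5:93708636 to 96499903 (2.79 Mb).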
